A study of Mus musculus with 48 samples.

Results

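*Dbp*, *Tef*, *Hlf* and *Nfil3* encode 4 transcription factors that compete for one DNA element, the D-box, and they were followed over the circadian day in mouse colon with and without an epithelial clock. The 4 genes were taken by symbol (GENCODE vM21) out of 55401 genes in the authors' table of counts, and none was chosen for its values. The colon of 48 adult male mice was sequenced, 24 Bmal1fl/fl controls and 24 Bmal1iec-/- mice, and each genotype gave 4 mice at every one of 6 circadian times (CT1, CT5, CT9, CT13, CT17 and CT21, where CT0 is the start of the subjective day). All mice were of a C57BL/6J background, carried floxed *Bmal1* on both alleles, were fed ad libitum and were killed on their second day in darkness. In Bmal1iec-/- mice a Villin-Cre transgene, active in the intestinal epithelium, removes *Bmal1*, and the controls are littermates without Cre. RNA came from whole colon tissue, so muscle, stroma, nerves and immune cells, in which the gene is not deleted, add to every value. In such bulk samples fewer cells of a type and less RNA per cell cannot be told apart.

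DBP, TEF and HLF form the PAR bZIP family (proline and acidic amino acid-rich basic leucine zipper factors), and they activate genes that carry D-boxes. NFIL3, also called E4BP4, is a basic leucine zipper factor that binds the same element and represses. In the usual account of the clock, BMAL1 and its partner CLOCK activate genes through E-boxes, as they do for *Dbp*, while the Rev-erb repressors (*Nr1d1* and *Nr1d2*) and ROR activators such as *Rora* act on *Nfil3* through Rev-erb response elements. The activators and the repressor therefore peak at opposite times of day. Their outputs include drug and bile acid handling genes, and epithelial NFIL3 is known for its control of lipid uptake in the gut.

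The elements through which the clock reaches these genes were looked for in the promoters, from 250 bases before to 50 bases after each RefSeq start (GRCm38.p6, 5 windows for the 4 genes). The letters searched on both strands were CACGTG (E-box), CACGTT (E'-box), TTANGTAA (D-box) and TAGGTCA (the core of a Rev-erb and ROR element), and the matches found in the members did not overlap each other. Over all 32851 promoter windows these stood in 7.15%, 4.68%, 2.32% and 2.61%. All 3 matches found in the members are shown, and they lie at the start sites of *Tef* and *Nfil3*. The motif is in capitals and 5′ to 3′ on the strand of the gene (plus for *Tef*, minus for *Nfil3*). Whether the matches bear on the course of these genes was not tested.
Tef, first start site, chr15:81802534-81802563: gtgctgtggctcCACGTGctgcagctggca
Tef, second start site, chr15:81811264-81811293: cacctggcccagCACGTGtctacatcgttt
Nfil3, chr13:52981033-52981062: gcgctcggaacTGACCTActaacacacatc
The capitals mark an E-box in the first pair and, in *Nfil3*, the Rev-erb and ROR core, which reads TAGGTCA on the strand opposite to the gene. The E-boxes began 127 and 138 bases before the *Tef* starts and the *Nfil3* match began 12 bases before its start. In GENCODE vM21, which places some starts further upstream, the first *Tef* match and the *Nfil3* match lie in the first exon of 1 transcript each, and the second *Tef* match lies in introns of 3 longer transcripts. None of the letters searched stood in the windows of *Dbp* or *Hlf*, which says only that they are not in these windows.

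The 48 libraries held between 3144997 and 4785844 counted reads per mouse. Values are given below as normalized counts, the read count divided by the DESeq2 size factor of the mouse. The deleted gene, listed as *Arntl*, had normalized counts from 15.8 to 283 in control mice (median 116) and from 84.9 to 180 in Bmal1iec-/- mice (median 121), and its log2 difference over all times was 0.22 (SE 0.18, adjusted p = 0.458, edgeR quasi-likelihood test). The count covers exons of the whole gene and cells without the deletion, so its level checked the labels poorly. Its course over the day differed between the genotypes (adjusted p for change of rhythm = 9.40e-14, same tool). Epithelial markers were at 16440 to 24380 CPM (counts scaled to the library total) in sum in control and 18600 to 28500 in Bmal1iec-/- mice. Bmal1iec-/- mice SV384 and SV385 at CT1 stood apart, with 18697 and 18285 genes detected against 19577 to 20878 in the other 46 mice. The members' main results that rest on CT1 are therefore also given without this pair. The percentage of genes that differed at CT1 fell from 24.7% to 1.21% without it. Only 2 Bmal1iec-/- mice then remain at CT1, which lowers the power of the test, so this fall does not measure the pair alone.

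*Dbp*, an activator that is a direct target of BMAL1, was lower in Bmal1iec-/- mice, and the difference lay around its daily maximum. At CT9 the normalized counts of the 4 control mice were 466, 415, 336 and 256. In the 4 Bmal1iec-/- mice at CT9 they were 114, 138, 187 and 62.5, so that every one lay below every control. At CT13 the control mice held 114, 140, 140 and 103 and the Bmal1iec-/- mice 43.2, 60.1, 73.7 and 43.6, again without overlap. At CT17 the groups also stood apart, at a lower level, with 30.6 to 43.2 in control and 9.41 to 25.8 in Bmal1iec-/- mice. At CT5 and CT21 the mice of both genotypes overlapped. The lowest level in both genotypes was at CT1, where the control mice held 12.8, 8.58, 7.16 and 8.71 and the Bmal1iec-/- mice 15.9, 10.4, 16.8 and 16.3. The overlap at CT1 rested on SV385 (10.4), and without the pair that stood apart both Bmal1iec-/- mice were above all controls. These were 7 to 16 reads a mouse, so a difference at CT1 was measured with low precision. The control means ran from 9.30 ± 2.41 (SD, n = 4) at CT1 to 368 ± 91.8 (SD, n = 4) at CT9, a 39.6-fold range. In Bmal1iec-/- mice they ran from 14.9 ± 2.98 (SD, n = 4) to 126 ± 51.9 (SD, n = 4), an 8.46-fold range, or 7.60-fold without the pair. In control mice, 4 of the 5 neighbours in the order of levels (CT9, CT13, CT5, CT17, CT21, CT1) were separated by all mice and 1 pair overlapped. In Bmal1iec-/- mice only 1 of 5 neighbours was so separated, and CT5 and CT13 changed places, but their mice overlapped in both genotypes. *Dbp* overlaps *Sphk2* on the other strand (chromosome 7, 45705088 to 45710203 in GRCm38, plus strand, for *Dbp*). Whether strand was used in the counting is not given in the sources used here. According to the paper, reads that overlapped several features were not counted. If strand was not used, reads from the overlap may therefore be missing from the *Dbp* count.

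**Figure D1:**
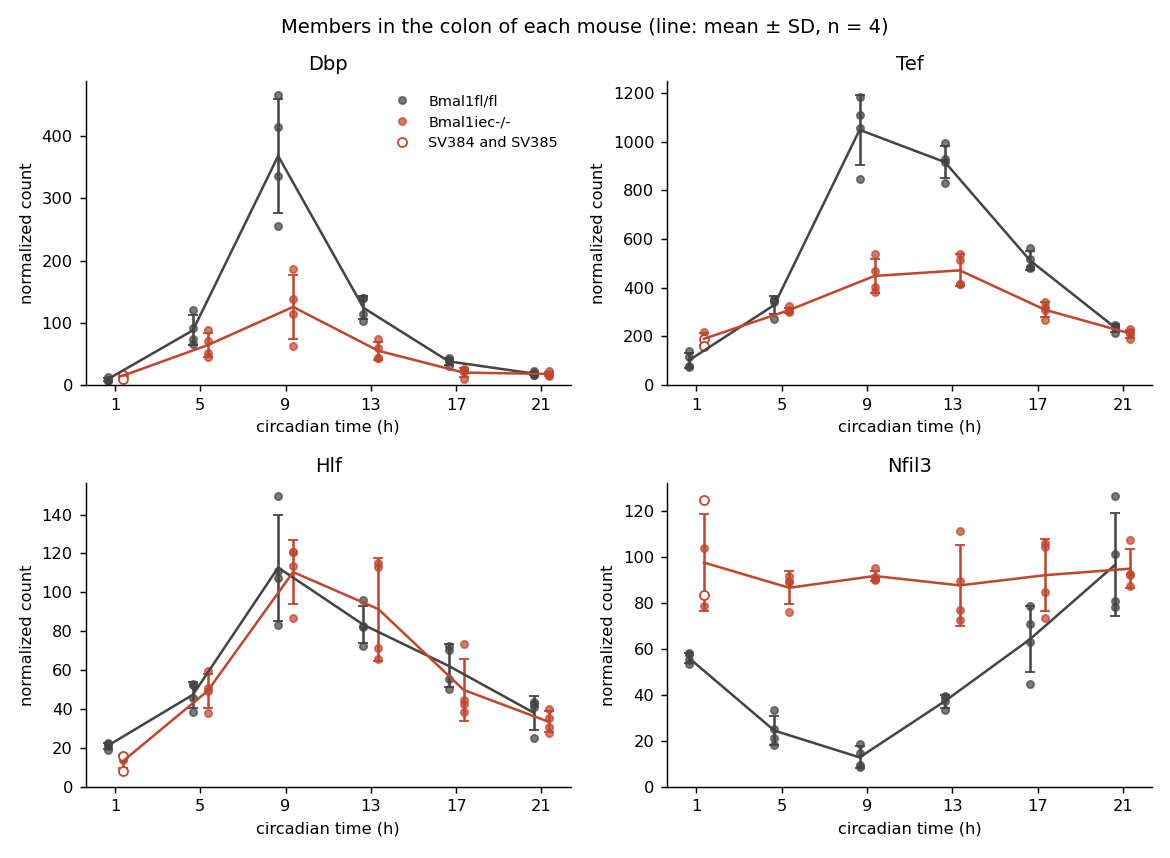
Normalized counts of Dbp, Tef, Hlf and Nfil3 (vertical axes, from 0) against circadian time in hours. Each point is 1 mouse, lines join the means of 4 mice with their SD, and the open points are mice SV384 and SV385. Dbp and Tef of Bmal1iec-/- mice lay below all controls at CT9, CT13 and CT17, Hlf overlapped between the genotypes at 5 of 6 times, and Nfil3 of Bmal1iec-/- mice stayed between 72.8 and 125 at every time.

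*Tef*, the member with the highest mean count over the 6 times in both genotypes, with no correction for gene length, lost the upper part of its daily course in Bmal1iec-/- mice and gained at its minimum. At CT9 the control mice held 1110, 1183, 1055 and 847 normalized counts and the Bmal1iec-/- mice 405, 468, 539 and 382. At CT13 the values were 928, 915, 993 and 830 in control and 415, 540, 516 and 416 in Bmal1iec-/- mice. At CT17 they were 517, 484, 563 and 483 against 266, 309, 341 and 322. At all 3 times every Bmal1iec-/- mouse was below every control mouse. At CT1 the order was turned, with 116, 75.3, 76.7 and 139 in control and 191, 161, 220 and 189 in Bmal1iec-/- mice, also without overlap. The pair that stood apart held 191 and 161, and without it the Bmal1iec-/- mean at CT1 was 204 ± 22.3 (SD, n = 2) in place of 190 ± 24.2 (SD, n = 4). At CT5 and CT21 the genotypes overlapped, with means of 329 and 308 at CT5 and of 235 and 212 at CT21. The means spanned a 10.3-fold range in control and a 2.48-fold range in Bmal1iec-/- mice, or 2.31-fold without the pair. The order of levels began with CT9 in control and with CT13 in Bmal1iec-/- mice, but CT9 and CT13 overlapped in both. *Tef* lies on chromosome 15, 81802421 to 81826863 (GRCm38, plus strand). An antisense gene within it, *Gm17597*, held 35 reads in all 48 mice together.

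*Hlf*, the other activator, showed no difference between the genotypes that passed a test. At CT9 the control mice held 111, 149, 108 and 83.3 normalized counts and the Bmal1iec-/- mice 113, 121, 121 and 86.6. At CT13 the values were 82.1, 72.5, 82.7 and 95.9 in control and 65.6, 115, 113 and 71.6 in Bmal1iec-/- mice. The genotypes overlapped at 5 of 6 times. The exception was CT1, where the control mice held 20.9, 19.1, 22.5 and 21.8 and the Bmal1iec-/- mice 15.9, 8.10, 13.6 and 14.3. There every Bmal1iec-/- mouse was lower, also among those outside the pair that stood apart, at 7 to 22 reads a mouse. Without the pair, 30.9% of all genes had mice that did not overlap at CT1. Both genotypes shared one order of levels, CT9, CT13, CT17, CT5, CT21 and CT1, in which 4 of 5 neighbours overlapped and CT21 stood above CT1 in all mice. The range of means was 5.36-fold in control and 8.50-fold in Bmal1iec-/- mice, or 7.92-fold without the pair. *Hlf* lies on chromosome 11, 90336536 to 90390895 (GRCm38, minus strand).

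*Nfil3*, the repressor, stood near its control maximum at every time in Bmal1iec-/- mice. At CT9, the control minimum, the control mice held 14.6, 9.46, 8.43 and 18.8 normalized counts and the Bmal1iec-/- mice 90.6, 90.1, 91.5 and 95.3. At CT5 the values were 25.1, 33.3, 21.3 and 18.3 in control and 89.2, 76.2, 92.0 and 89.6 in Bmal1iec-/- mice. At CT13 they were 39.2, 39.5, 37.2 and 33.4 against 72.8, 89.6, 77.0 and 112. No mice of the 2 genotypes overlapped at these times, and the same held at CT1, with 53.4 to 58.1 in control and 78.6 to 125 in Bmal1iec-/- mice. At CT17 and CT21 the genotypes overlapped. The control maximum, at CT21, was 96.9 ± 22.3 (SD, n = 4), beside 95.1 ± 8.63 (SD, n = 4) in Bmal1iec-/- mice at the same time. The control means spanned a 7.56-fold range, whose lowest mean, at CT9, rested on 8 to 21 reads a mouse. The 6 means of Bmal1iec-/- mice spanned 1.13-fold, from 86.7 ± 7.14 (SD, n = 4) at CT5 to 97.7 ± 21.2 (SD, n = 4) at CT1, and all 5 neighbours in their order overlapped. Without the pair that stood apart the CT1 mean was 91.3 ± 17.9 (SD, n = 2) and the range 1.10-fold. *Nfil3* lies on chromosome 13, 52967209 to 52981073 (GRCm38, minus strand).

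Over the whole day, 3 of the 4 members differed between the genotypes. *Dbp* and *Tef* were lower, *Nfil3* was higher, and *Hlf* did not pass the test. With genotype and circadian time as terms and all 48 mice, *Dbp* fell by 0.84 on the log2 scale (SE 0.14, adjusted p = 2.07e-05) and *Tef* fell by 0.45 (SE 0.11, adjusted p = 0.00366), both by edgeR (quasi-likelihood F test, Benjamini-Hochberg over 14618 genes). The difference of *Nfil3* was 1.05 (SE 0.14, adjusted p = 3.11e-07) and that of *Hlf* -0.11 (SE 0.09, adjusted p = 0.434) in the same test. In the 46 mice without that pair the differences were -0.88 for *Dbp*, -0.50 for *Tef*, 1.04 for *Nfil3* and -0.09 for *Hlf*, with the same 3 members called. The *Tef* call did not hold without CT9 (-0.28, adjusted p = 0.109, edgeR) or without CT13 (-0.33, adjusted p = 0.0815). The members' 3 calls stand beside 12% of all genes called, 6.4% higher and 5.56% lower. *Dbp* and *Nfil3* also passed the 1.5-fold mark that the study used, as did 1.35% of all genes, and *Tef*, 1.37-fold lower, did not. Without a term for circadian time the adjusted p was 0.0800 for *Dbp* and 0.0639 for *Tef*, and a test against a change of 1.5-fold called none of the 4 (edgeR in each case).

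The differences of the members depended strongly on the time of day. At CT9 and CT13 the 3 members *Dbp*, *Tef* and *Nfil3* differed, at CT21 none did, and the direction of *Tef* turned between CT1 and CT9. All adjusted p-values here are from edgeR's quasi-likelihood test with 12 groups. *Nfil3* was higher by 0.80 (SE 0.18, adjusted p = 0.00118) on the log2 scale at CT1, by 1.81 (SE 0.19, adjusted p = 1.16e-08) at CT5, by 2.81 (SE 0.21, adjusted p = 2.26e-13) at CT9 and by 1.23 (SE 0.18, adjusted p = 1.03e-05) at CT13. Its CT9 difference was 7.02-fold, against control mice with 8 to 21 reads each. Without the pair that stood apart, the CT1 difference of *Nfil3* was 0.69 (SE 0.21) and no longer passed (adjusted p = 0.0702), with 2 Bmal1iec-/- mice left. *Tef* was higher at CT1 by 0.91 (SE 0.15, adjusted p = 4.91e-05), or by 1.0 without the pair (adjusted p = 0.000612). It fell by 1.22 (SE 0.12, adjusted p = 1.01e-09) at CT9, by 0.96 (SE 0.12, adjusted p = 3.63e-07) at CT13 and by 0.73 (SE 0.13, adjusted p = 0.000284) at CT17. *Dbp* fell by 1.54 (SE 0.21, adjusted p = 2.26e-06) at CT9 and by 1.17 (SE 0.23, adjusted p = 0.00107) at CT13. At CT17, where no *Dbp* values overlapped, its difference was -0.93 (SE 0.30, adjusted p = 0.189), and at CT1 it was 0.69 (SE 0.42, adjusted p = 0.228), or 0.83 (adjusted p = 0.420) without the pair.

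*Hlf* passed at no time. Its differences ran from -0.69 (SE 0.29, adjusted p = 0.0734, edgeR) at CT1 to 0.13 (SE 0.19, adjusted p = 0.811) at CT13, and the CT1 value was -0.60 (adjusted p = 0.403) without the pair. The share of all genes called was 24.7% at CT1, 0.376% at CT5, 1.46% at CT9, 3.58% at CT13, 0.876% at CT17 and 0.328% at CT21. Against these shares the members gave 2, 1, 3, 3, 1 and 0 calls of 4. The share of genes whose mice did not overlap between genotypes was 19.2% at CT1, 4.06% at CT5, 4.23% at CT9, 13% at CT13, 4.75% at CT17 and 4.57% at CT21, and of the 4 members 3, 1, 3, 3, 2 and 0 did not overlap.

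**Figure D2:**
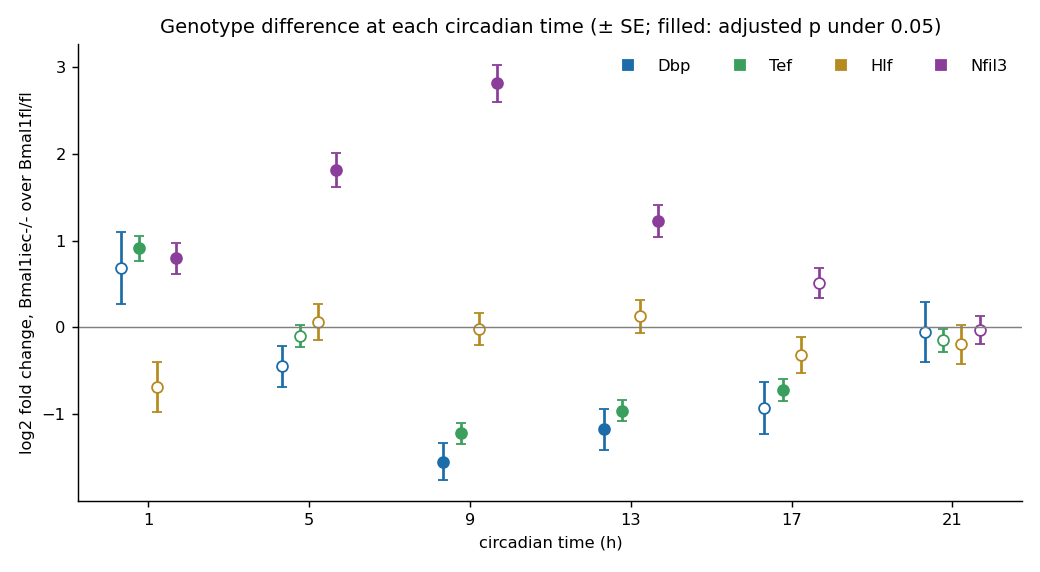
Log2 fold change of Bmal1iec-/- over Bmal1fl/fl mice (vertical axis) at each circadian time in hours, with SE, for the 4 members by colour. Filled points have an adjusted p under 0.05 in edgeR. Nfil3 reached 2.81 at CT9, Tef and Dbp had their lowest values there at -1.22 and -1.54, and all 4 members lay near 0 at CT21.

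The dependence on time was tested directly by the interaction of genotype and circadian time. It was called for *Tef* (adjusted p = 4.23e-10), *Nfil3* (adjusted p = 3.58e-09) and *Dbp* (adjusted p = 0.00883) and not for *Hlf* (adjusted p = 0.503, edgeR quasi-likelihood test in each case), beside 3.98% of all genes. Without the pair that stood apart it was called for the same 3 members, with 0.0354 for *Dbp*, beside 0.504% of all genes.

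In control mice all 4 members were rhythmic over 24 h. In Bmal1iec-/- mice *Dbp*, *Tef* and *Hlf* were still rhythmic, and no rhythm was detected for *Nfil3*. JTK_cycle, a rank test for a 24-h rhythm with 12 candidate phases, gave adjusted p = 2.40e-08 for *Dbp*, 1.39e-09 for *Tef*, 1.06e-07 for *Hlf* and 7.43e-12 for *Nfil3* in 24 control mice. In 24 Bmal1iec-/- mice it gave 2.45e-05, 4.65e-09 and 9.39e-07 for the activators and 1 for *Nfil3*. The phase that JTK_cycle chose was CT10 for *Dbp* and CT12 for *Tef* and *Hlf* in both genotypes, and CT20 for *Nfil3* in control mice. Over 46 mice it chose CT8 for *Dbp* and CT10 for *Hlf* in Bmal1iec-/- mice, with the same 3 members rhythmic. In the same test 24.1% of 32527 genes were rhythmic in control and 14.2% in Bmal1iec-/- mice.

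The size of the rhythm was read from a cosine fitted to log2 CPM, whose amplitude is the distance from the daily mean to the peak. *Dbp* had an amplitude of 2.26 (SE 0.17) in control and 1.43 (SE 0.15) in Bmal1iec-/- mice, which is 63.0% of control. *Tef* fell from 1.58 (SE 0.11) to 0.68 (SE 0.05), which is 43.2% of control. *Nfil3* went from 1.26 (SE 0.10) to 0.06 (SE 0.06), or 4.38% of control. *Hlf* had 1.0 (SE 0.10) in control and 1.25 (SE 0.14) in Bmal1iec-/- mice. Over 46 mice the amplitudes of *Dbp*, *Tef*, *Nfil3* and *Hlf* were 60.2%, 41.0%, 2.99% and 111% of control. The 95% interval of the *Hlf* difference ran from -0.09 to 0.59 over 48 mice and from -0.22 to 0.44 over 46 mice, while those of *Dbp* (-1.29 to -0.38), *Tef* (-1.14 to -0.67) and *Nfil3* (-1.44 to -0.97) over 48 mice excluded 0. A change of rhythm, tested in edgeR over 2 degrees of freedom, was called for *Nfil3* (adjusted p = 3.99e-10), *Tef* (adjusted p = 3.59e-06) and, close to the threshold, *Dbp* (adjusted p = 0.0493), but not for *Hlf* (adjusted p = 0.728), beside 1.92% of all genes. Over 46 mice the same 3 members were called, with an adjusted p of 0.0490 for *Dbp* in edgeR. The *Dbp* call did not hold when any of CT1, CT5, CT9, CT13 or CT17 was left out, nor in 28 of the 48 fits that left out 1 mouse.

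Peak times of the activators differed by -1.07 h at most between the genotypes over 48 mice, and by -1.39 h at most without the pair that stood apart, in both cases for *Dbp*. The fitted peak of *Dbp* was at CT10.2 (SE 0.29 h) in control and CT9.09 (SE 0.41 h) in Bmal1iec-/- mice, with a 95% interval of the difference from -2.06 to -0.08 h. Those of *Tef* were at CT11.9 (SE 0.27 h) and CT11.2 (SE 0.26 h), with an interval from -1.46 to -0.0020 h, and those of *Hlf* at CT11.7 (SE 0.39 h) and CT11.5 (SE 0.43 h), with an interval from -1.37 to 0.90 h. *Nfil3* peaked at CT20.3 (SE 0.32 h) in control mice, and its flat course in Bmal1iec-/- mice gave no usable peak. With that pair left out, the *Dbp* peak of Bmal1iec-/- mice was at CT8.77, with an interval of the difference from -2.43 to -0.35 h.

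**Figure D3:**
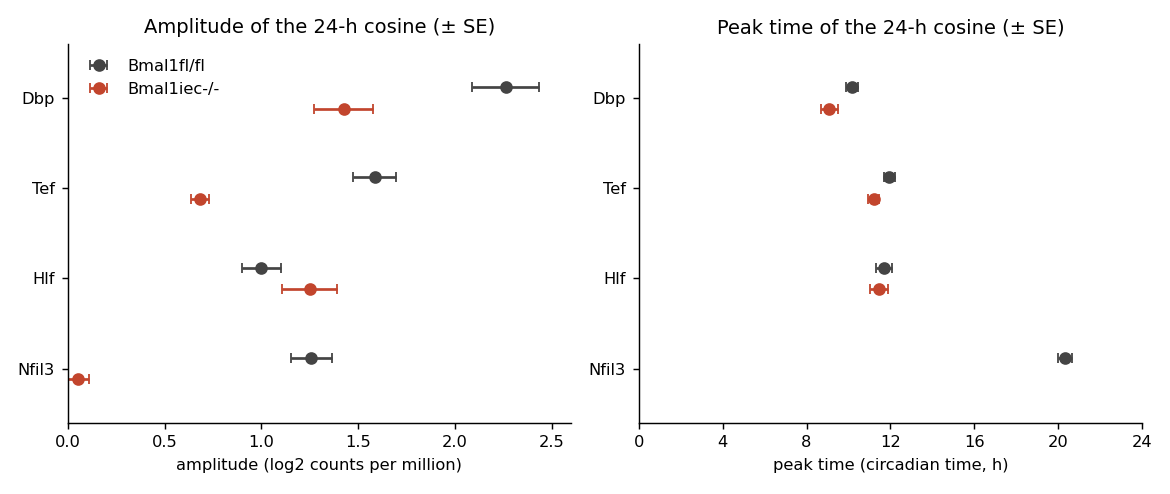
Amplitude in log2 CPM (left) and peak time in circadian hours (right) of a 24-h cosine fitted to 24 mice of each genotype, with SE. The amplitude of Nfil3 was 1.26 in Bmal1fl/fl and 0.06 in Bmal1iec-/- mice, those of Dbp and Tef were lower in Bmal1iec-/- mice, and peak times of the activators lay between CT9 and CT12 in both. No peak is drawn for Nfil3 of Bmal1iec-/- mice.

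To set the members beside each other, normalized counts were divided by the merged exon length of each gene in kilobases. This length was 7867 bases for *Tef* and 2993 for *Dbp*, but their longest transcripts had 4403 and 1837. For *Nfil3* both were 2026 bases. A shorter length raises the activators against *Nfil3*, so the shares below hold for merged exons only. Shares by longest transcript were not computed. Per kilobase, the activators summed to 273 ± 50.8 (SD, n = 4) at CT9 and to 19.2 ± 4.46 (SD, n = 4) at CT1 in control mice. In Bmal1iec-/- mice the sum was 116 ± 28.1 (SD, n = 4) at CT9 and 31.1 ± 4.36 (SD, n = 4) at CT1, or 33.6 without the pair that stood apart. Of the summed level of all 4 members at CT9, control mice held 43.6% *Dbp*, 48% *Tef*, 6.02% *Hlf* and 2.40% *Nfil3*. Bmal1iec-/- mice held 25.3%, 35.5%, 10.3% and 28.9% at the same time. At CT21 the composition was alike, with *Nfil3* at 52.9% in control and 55.3% in Bmal1iec-/- mice and *Tef* at 33.8% and 31.8%. *Tef* was the largest of the 3 activator shares in all 12 groups.

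The log2 ratio of activators to repressor per kilobase was lower in Bmal1iec-/- mice. In control mice its mean ran from -0.56 ± 0.35 (SD, n = 4) at CT1 through 2.72 ± 0.26 at CT5 to 5.49 ± 0.73 at CT9, and then over 3.21 ± 0.09 at CT13 and 1.48 ± 0.27 at CT17 back to -0.17 ± 0.37 at CT21. In Bmal1iec-/- mice it was -0.62 ± 0.51 (SD, n = 4) at CT1, 0.67 ± 0.16 at CT5, 1.32 ± 0.39 at CT9, 1.09 ± 0.42 at CT13, 0.24 ± 0.42 at CT17 and -0.31 ± 0.05 at CT21. No mice of the 2 genotypes overlapped from CT5 to CT17, and they overlapped at CT1 and CT21. The means thus spanned 66.0-fold in control and 3.83-fold in Bmal1iec-/- mice. The control maximum, at CT9, rested on 8 to 21 *Nfil3* reads a mouse. Averaged over the 6 times the log2 ratio differed by -1.63 (p = 1e-05, permutation test with 100000 draws of the genotype within circadian times, two-sided, the smallest p it can give), and by -1.60 without the pair. With the longest transcript of each gene as its length the difference was -1.63. The level of the ratio in each group, and its sign, depend on the length used. These are transcript ratios in whole tissue and do not count protein.

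**Figure D4:**
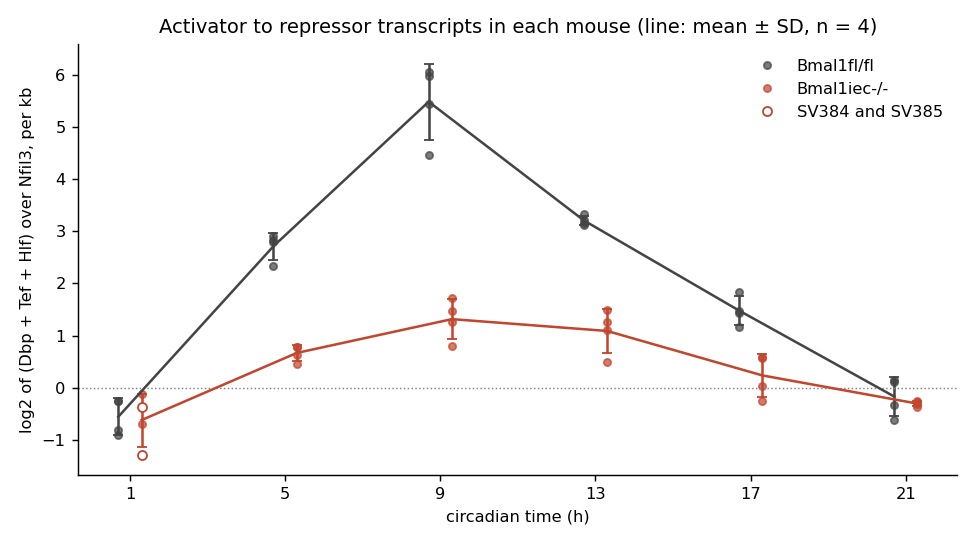
Log2 ratio of the summed activators Dbp, Tef and Hlf to Nfil3, per kilobase of exon (vertical axis), against circadian time in hours. Each point is 1 mouse, lines join means of 4 mice with SD, and open points are SV384 and SV385. The ratio of control mice rose to 5.49 at CT9, that of Bmal1iec-/- mice to 1.32, and both genotypes met near 0 at CT1 and CT21.

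The factors that act on these genes moved in the colon as well. Of the factors that act at Rev-erb elements, *Nr1d1*, *Nr1d2* and *Rora* are given by their log2 differences over the day, with no count over the group. The repressors *Nr1d2* and *Nr1d1* fell by 1.78 (SE 0.08, adjusted p = 1.95e-23) and fell by 1.56 (SE 0.13, adjusted p = 2.04e-13), and the activator *Rora* fell by 0.27 (SE 0.08, adjusted p = 0.0177), all in edgeR. Of 11 genes of the core clock under E-box control or making it, 3 rose and 3 fell, with a median log2 difference of 0.13 beside 0.000611 over all genes. Over all genes 6.4% were called higher and 5.56% lower. The repressor *Cry1* rose by 1.31 (SE 0.13, adjusted p = 1.15e-10), *Npas2*, a paralogue of *Clock* that also pairs with BMAL1, by 1.33 (SE 0.12, adjusted p = 2.14e-12) and *Cry2* by 0.28 (SE 0.08, adjusted p = 0.0186). The repressors *Ciart* (-1.38, SE 0.16, adjusted p = 1.28e-08), *Per3* (-0.90, SE 0.11, adjusted p = 4.32e-08) and *Per1* (-0.56, SE 0.16, adjusted p = 0.0149) fell. *Per2*, another repressor, differed in opposite directions over the day as *Tef* did, with 2.0 (adjusted p = 5.72e-07, edgeR) at CT1 and -0.92 (adjusted p = 0.000951) at CT13. Over 46 mice the same numbers of these core clock genes rose and fell. The CT1 value of *Per2* was 2.29 without the pair that stood apart (adjusted p = 5.72e-07).

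Clock genes known to carry D-boxes were mostly lower. Of 8 such genes 7 were tested, of which 5 fell, 1 (*Cry1*) rose and *Per2* did not pass (0.18, SE 0.15, adjusted p = 0.477, edgeR), with a median of -0.56. Over all genes 5.56% were called lower and 6.4% higher. The list shares *Nr1d1*, *Nr1d2*, *Rora*, *Per1*, *Per2*, *Per3* and *Cry1* with the lists above, and several of these genes also carry E-boxes. Of 11 known output genes of the PAR bZIP factors 7 were expressed enough to be tested, of which 4 fell, 1 rose and 2 did not pass, with a median of -0.33. These counts stand beside the same shares of all genes. The organic anion pump *Abcc2* fell by 1.58 (SE 0.17, adjusted p = 2.83e-10), the drug efflux pump *Abcb1a* by 0.54 (SE 0.07, adjusted p = 2.73e-08), the peptide transporter *Slc15a1* by 0.52 (SE 0.13, adjusted p = 0.00310) and *Por*, the electron donor of cytochrome P450 enzymes, by 0.33 (SE 0.09, adjusted p = 0.00769). *Cyp3a11*, a drug-metabolizing P450, went the other way and rose by 2.67 (SE 0.23, adjusted p = 6.12e-13). *Cyp3a11* has close paralogues, and reads with a mapping quality under 4 were not counted. Reads that fit several paralogues equally may therefore be missing from its count. The other 2 tested outputs, *Pdxk* (pyridoxal kinase, -0.21, SE 0.08, adjusted p = 0.0626) and *Alas1* (heme synthesis, -0.05, SE 0.13, adjusted p = 0.843), did not pass over the day. Over 46 mice *Pdxk* passed as well (-0.29, adjusted p = 0.00133), so that 5 of 7 fell. At CT13 alone 5 of the 7 were lower and 1 higher in edgeR, beside 3.58% of all genes called. Among them were *Pdxk* (-0.79, adjusted p = 0.000357) and *Alas1* (-0.90, adjusted p = 0.0349). *Alas1* was higher at CT1 (1.14, adjusted p = 0.00248, edgeR), but did not pass there without the pair that stood apart (0.55, adjusted p = 0.370). The rhythms of *Pdxk* and *Alas1* were detected in both genotypes by JTK_cycle, with phases of CT16 and CT14 in control and CT18 and CT16 in Bmal1iec-/- mice. The liver outputs *Cyp2a5*, *Cyp2b10*, *Cyp7a1* and *Nr1i3* were too low in colon to be tested.

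**Figure D5:**
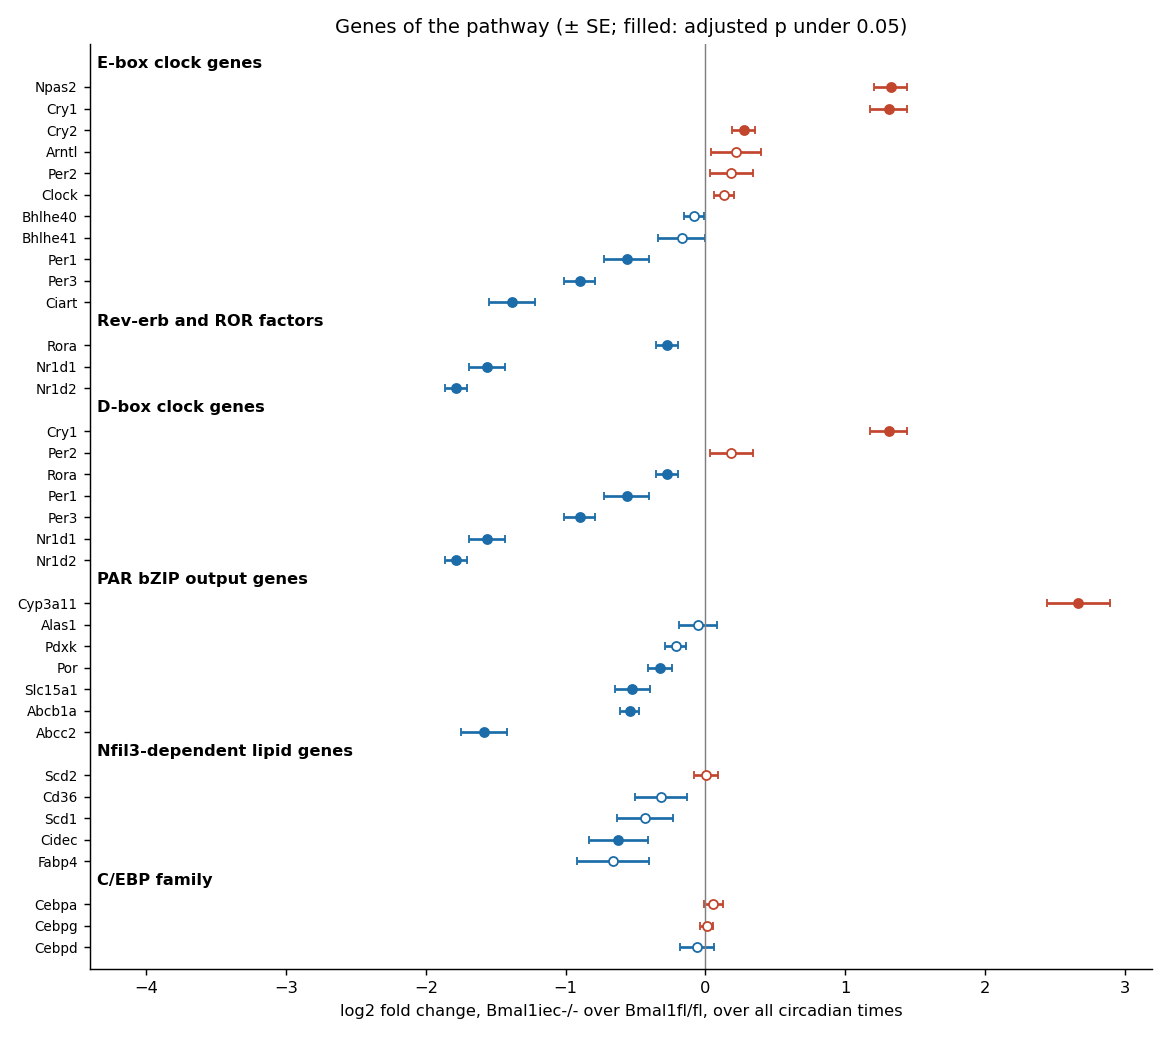
Log2 fold change of Bmal1iec-/- over Bmal1fl/fl mice over all circadian times, with SE (horizontal axis), for tested genes of 6 lists (vertical axis), filled where the adjusted p was under 0.05 in edgeR. Nr1d2 and Abcc2 had the lowest values of their lists, Cyp3a11 the highest at 2.67, and genes that belong to more than one list are drawn in each.

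Few of the lipid genes known to be lower without epithelial NFIL3 differed, none was called higher, and the median of the list was -0.43. Of 5 tested, *Cidec*, a lipid droplet protein, fell by 0.62 (SE 0.21, adjusted p = 0.0419, edgeR) and the other 4 did not pass. Over all genes 12% were called. The values were -0.66 (SE 0.26, adjusted p = 0.0833) for *Fabp4*, -0.43 (SE 0.20, adjusted p = 0.150) for *Scd1*, -0.32 (SE 0.18, adjusted p = 0.270) for *Cd36* and 0.01 (SE 0.08, adjusted p = 0.976) for *Scd2*. The C/EBP factors are bZIP proteins whose sites resemble the D-box. Of 5, 3 were tested and none passed, with differences of 0.06 (SE 0.07) for *Cebpa*, -0.06 (SE 0.12) for *Cebpd* and 0.01 (SE 0.05) for *Cebpg*.

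Over the whole day cell type markers moved to a smaller extent than the 3 members called, and they are given beside these results. Over all genes 12% were called over the day in edgeR, 6.4% higher and 5.56% lower. Of 11 epithelial markers 6 were higher in Bmal1iec-/- mice (*Cdh1*, *Krt8*, *Krt18*, *Krt19*, *Cdx2* and *Lgals4*, by 0.15 to 0.30 on the log2 scale) and none lower. Of 7 smooth muscle markers 1 was lower (*Cnn1*, -0.28), of 6 fibroblast markers 1 (*Dcn*, -0.26) and of 7 neuronal and glial markers 2 (*Ret*, -0.20, and *S100b*, -0.34), with adjusted p from 5.85e-05 to 0.0391 in edgeR for the markers named. Without the pair that stood apart 4 of the epithelial markers were higher, 1 (*Epcam*, -0.10) was lower and 2 smooth muscle markers were lower, *Cnn1* and *Myh11*. None of the tested markers of T cells (4), innate lymphoid cells (2), B cells (2) or macrophages (4) passed over the whole day. At CT1 *Cd8a* (-1.20, adjusted p = 0.00740, edgeR) and *Kit* (-0.64, adjusted p = 0.000752) passed. *Kit* and *Il7r* were the only markers of the innate lymphoid list that were tested. *Il7r* did not pass at CT1 (-0.32, adjusted p = 0.609, edgeR), and whether *Kit* stood for these cells in whole colon was not tested. Without the pair none of the tested markers of T cells, innate lymphoid cells, B cells or macrophages passed at any time. The other types moved further at CT1, where 10 of 11 epithelial markers were higher (*Krt19* by 0.96). Lower there were 3 smooth muscle (*Myh11*, -0.93), 3 fibroblast (*Dcn*, -0.87) and 2 neuronal and glial markers, beside 24.7% of all genes called. Without the pair *Krt19* (0.67), *Cdx2* (0.62), *Dcn* (-0.91) and *Lum* (-0.83) still passed at CT1, beside 1.21% of all genes. In sum, smooth muscle markers ran from 3627 to 5775 CPM in control and from 783 to 5371 in Bmal1iec-/- mice, with the lowest value in the pair that stood apart. Fibroblast markers ran from 958 to 1673 and from 368 to 1728, and T cell markers from 11.3 to 23.9 and from 6.34 to 20.6. The innate lymphoid list, which includes *Kit*, ran from 147 to 292 and from 121 to 284. Neuronal and glial markers ran from 62.6 to 95 in control and from 38.3 to 80.9 in Bmal1iec-/- mice, B cell markers from 1.88 to 11.7 and from 1.94 to 16.0, and macrophage markers from 60.1 to 101.4 and from 27.5 to 115. No marker of these lists was at 0 in all mice. The part of these shifts in the members' results was not tested.

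The genes whose course was most like that of each member are given as a description, from Pearson's r over the 12 group means of log2 CPM, which all come from the same libraries. *Dbp* was followed most closely by *0610005C13Rik* (r = 0.95), *Clcn2* (0.95), *Ciart* (0.94) and *Hhipl1* (0.94). *Tef* was followed by *Plcd1* (0.96), *Per1* (0.95), *Per3* (0.95) and *2010300C02Rik* (0.94), and *Hlf* by *Polm* (0.96), *Recql5* (0.96), *Jak3* (0.95) and *Podn* (0.94). Over 46 mice the values of *Polm*, *Recql5* and *Jak3* were 0.86, 0.91 and 0.89. For *Nfil3* they were *Ier5* (0.96), *E2f2* (0.95), *Nol4l* (0.93) and *Cdcp1* (0.92). The members were compared with each other over these 12 means of all 48 mice. *Dbp* and *Tef* had an r of 0.88, *Tef* and *Hlf* of 0.85 and *Dbp* and *Hlf* of 0.83. *Nfil3* stood against them at -0.69 for *Dbp*, -0.54 for *Tef* and -0.38 for *Hlf*. These values of *Nfil3* pool both genotypes. Over the 6 control means they were -0.87, -0.58 and -0.64, and over the 6 Bmal1iec-/- means -0.57, -0.69 and -0.61.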

How the data were processed

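The colon of 48 mice was sequenced, 4 Bmal1fl/fl and 4 Bmal1iec-/- mice at each of 6 circadian times. The authors prepared libraries with a stranded mRNA kit, mapped the read pairs with STAR 2.7.5c (build mm10) and deposited raw counts per gene from featureCounts 1.4.6, for which the mapping quality had to reach 4. The strand setting and any sequencing batch are not given in the sources used here. Totals were 3144997 to 4785844 counts per mouse. A count of 0 allows up to 3, and this floor covers counting error only. Replicate mice differed by more than counting error (chi-square per gene 1.93 to 14.9 over 72 pairs).

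The counts were tested in edgeR 4.0.16 (filterByExpr, TMM, quasi-likelihood F test, Benjamini-Hochberg over 14618 genes, threshold 0.05) with 3 models: genotype and circadian time, 12 groups, and genotype by a 24-h cosine and sine. JTK_cycle was an own implementation (exact null distribution, Bonferroni over 12 phases in steps of 2 h). Cosines were fitted by least squares to log2 CPM with a prior count of 2. Normalized counts are counts over DESeq2 1.42.0 size factors. The scripts were tested on simulated data. Members, gene lists and tests were chosen with earlier results of these data known, and 1 gene of the list of factors at Rev-erb elements is not reported here. Genes named are the members, *Arntl*, up to 6 genes of each list by adjusted p, markers that passed and the 4 genes most like each member. Alternatives were 46 mice, other normalization, filter, tests and thresholds, and leaving out each mouse or time. Promoter sequences are from RefSeq (GRCm38.p6). The software was matplotlib 3.10.9, scipy 1.17.1, pandas 2.3.3 and numpy 2.4.6 under Python 3.11.15, and R 4.3.3.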

Additional observations from a re-analysis of the deposited data

Results flagged for a closer look

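The genotype difference of 3 members changed with circadian time, which was tested directly as an interaction in edgeR. The adjusted p was 4.23e-10 for *Tef*, 3.58e-09 for *Nfil3* and 0.00883 for *Dbp*. The rhythm itself also differed between the genotypes for *Nfil3* (adjusted p = 3.99e-10), *Tef* (adjusted p = 3.59e-06) and *Dbp* (adjusted p = 0.0493), in edgeR's test on 2 degrees of freedom.

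In 3 of the 48 groups of 4 mice, 1 mouse lay far from the other 3 by Dixon's test, and chance marks about 1 in 20 groups. *Dbp* of Bmal1iec-/- mouse SV385 at CT1, one of the pair that stood apart, had a normalized count of 10.4 against 15.9 to 16.8 in the other 3. *Hlf* of control mouse SV476 at CT21 was at 24.9 against 41.1 to 43.5. *Hlf* of Bmal1iec-/- mouse SV437 at CT17 was at 73.7 against 38.7 to 44.5.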

How the results depend on the processing

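No paired analysis was possible because each mouse carries its own number in the labels and no numbers are shared between groups. Of 311 comparisons with an alternative other than leaving out 1 mouse, 281 were judged the same. For tests this means the same direction and side of the threshold. The set also includes counts of genes and cosine amplitudes and peak times, which have no threshold, and fits to the mice of a single time. Without a term for circadian time the difference of *Dbp* was -1.10 (adjusted p = 0.0800) and of *Tef* -0.69 (adjusted p = 0.0639). Against a change of 1.5-fold the differences of *Dbp* (-0.84), *Tef* (-0.45) and *Nfil3* (1.05) did not pass, with an adjusted p of 0.0608 for *Nfil3*. *Tef* did not pass without CT9 (-0.28) or without CT13 (-0.33). Without the filter on low counts *Dbp* passed at CT17 (-0.93, adjusted p = 0.00384). Over 46 mice, with 2 Bmal1iec-/- mice left at CT1, *Nfil3* no longer passed there (0.69). The change of rhythm of *Dbp* had an adjusted p of 0.404 without CT1, 0.0683 without CT5, 0.106 without CT9, 0.0681 without CT13 and 0.0736 without CT17, and of 0.0175 to 0.0946 with 1 mouse left out. The cause of these shifts was not tested. Leaving out 1 mouse turned the sign of uncalled differences near 0 (log2), which ran from -0.15 to 0.054 for *Dbp* at CT21, -0.045 to 0.16 for *Hlf* at CT5, -0.14 to 0.14 for *Hlf* at CT9, -0.0026 to 0.25 for *Hlf* at CT13 and -0.11 to 0.13 for *Nfil3* at CT21.

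Counts over all genes moved more than the members. Of 1748 genes with a genotype difference, 960 passed without a time term and 44 against 1.5-fold. Time-dependent differences numbered 582, 76 over 46 mice and 1701 without the filter. Changed rhythms numbered 281, 141 over 46 mice, 54 without CT1, 62 without CT13 and 655 without CT21. At CT1 3616 genes differed, 183 over 46 mice and 393 with the 8 mice of that time alone. Without the filter the counts at CT5, CT9, CT17 and CT21 were 198, 390, 299 and 244 in place of 55, 214, 128 and 48, and with the mice of that time alone they were 122 at CT9 and 983 in place of 523 at CT13. Single mice moved these counts, since without SV385 1380 genes differed at CT1 and 179 depended on time, against up to 4299 and 1085 without other mice. At CT13 the count was 306 to 589 with 1 mouse left out. Depth limits *Dbp* and *Hlf* at CT1, with 7 to 22 reads a mouse, and *Nfil3* of control mice at CT9, with 8 to 21.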
